A study of Homo sapiens with 31 samples.

Results

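The 2 libraries labelled KHSRP knockout (KO) with actinomycin D for 8 h were set against the 2 labelled KO with actinomycin D for 0 h, 4 of the 20 libraries of the actinomycin D set and 4 of the 31 samples of the series. All 4 come from the PANC-1 line of human pancreatic ductal cancer cells, and the 0 h libraries carry the knockout label as well. KO here is the label: the KHSRP transcript was counted in all 4 libraries. The 2 libraries at 8 h and 2 at 0 h labelled NC (genotype label wild-type) served for a test of whether the change differed between the labels. The labels name polyA RNA, and do not say whether the knockout is 1 clone, how it was made, or whether same-group libraries came from separate cultures. The p-values therefore reflect variation among these libraries alone, and that variation may be technical.

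Actinomycin D binds DNA and blocks transcription, so that during treatment the messages already made are lost at their own rates. KHSRP is an RNA-binding protein known to bind AU-rich elements and to recruit decay enzymes. Unstable messages, among them those of immediate early genes, MYC and MCL1, classically disappear within the first hours of such a chase, while messages for ribosomal proteins and metabolic enzymes are long-lived. A library scaled to its own total shows only which messages were lost faster or slower than the average, and the study's deposited molecule value is a second scale whose total is free to move. In a bulk sample, fewer cells and less RNA per cell cannot be told apart.

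Total counts were 20348457 and 21888766 in the 8 h libraries and 21713285 and 19177934 in the 0 h libraries, within the range of 19177934 to 25768060 over the 20 libraries. The targeted gene, KHSRP (hg19 chromosome 19, 6413113 to 6424822, minus strand), stood at 143 and 142 CPM (reads of the gene per 1e+06 reads counted in the library) at 8 h and at 134 and 145 CPM at 0 h. The groups overlapped, with a log2 change of 0.03 (SE 0.05, edgeR quasi-likelihood test, Benjamini-Hochberg adjusted p = 0.728; 0.13 with an adjusted p of 0.0306 by DESeq2), and the libraries labelled NC averaged 418 CPM at 8 h and 428 CPM at 0 h. The libraries labelled KO thus held less KHSRP transcript than those labelled NC but did not lack it, and whether the protein was lost was not measured here. The ductal keratins were present: KRT8 stood at 3574 and 3708 CPM at 8 h and 3298 and 3246 CPM at 0 h. CDKN2A, which is deleted in PANC-1, had 0 counts in the 4 KO libraries but 220 and 229 CPM in the libraries labelled NC at 8 h and 206 and 201 CPM in those at 0 h, so the libraries labelled NC went against their cell line label. Of the 10 acinar and endocrine markers none passed the count filter. The 10 immune markers summed to 220 to 228 CPM at 8 h and 199 to 201 CPM at 0 h, nearly all of it CD68, and the 8 endothelial markers summed to 6.76 to 8.6 CPM at 8 h and 9.72 to 10.95 CPM at 0 h. The 10 fibroblast markers summed to 35.1 and 40.2 CPM at 8 h and 54.7 and 61.8 CPM at 0 h, and the part of other cells in the results was not tested.

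The labelled times did not follow the order that short-lived messages usually take. MYC stood at 7.27 and 8.73 CPM at 8 h and at 7.74 and 6.67 CPM at 0 h, and the groups overlapped (log2 change 0.15, SE 0.14, adjusted p = 0.548, edgeR). JUN stood at 21.1 and 19.4 CPM at 8 h, against 18.4 and 18.7 CPM at 0 h (log2 change 0.13, SE 0.12, adjusted p = 0.551, edgeR). MCL1 stood at 101 and 96.3 CPM at 8 h, against 102 and 104 CPM at 0 h (log2 change -0.07, SE 0.05, adjusted p = 0.444, edgeR). None of the 3 passed the test relative to the total, though MCL1 was lower under scaling to the ribosomal protein genes (-0.21, adjusted p = 0.00278), and the libraries labelled KO 6 h held the highest levels, with 77.6 and 82.3 CPM of MYC, 216 and 229 CPM of JUN and 476 and 477 CPM of MCL1. FOS, an immediate early gene, averaged 75.9 CPM in the libraries labelled KO 6 h and between 0.634 and 1.13 CPM at each of the other 4 labelled times. The comparison below is that of the labelled groups, and whether the label of a library gives its time under the drug was not tested.

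**Figure D1:**
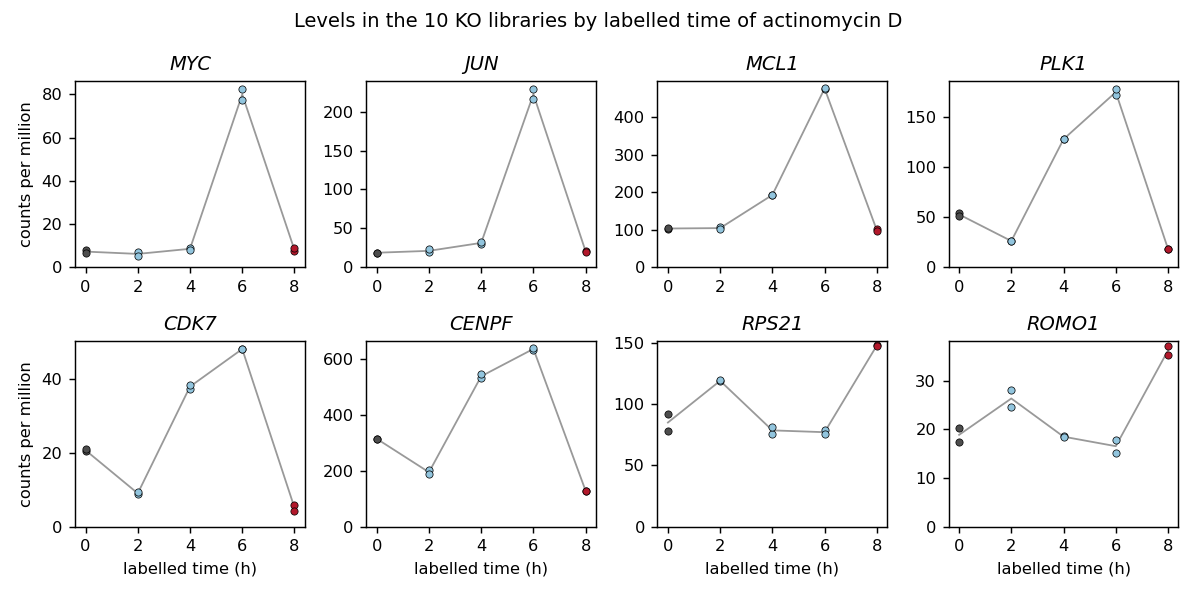
CPM (vertical axes, each from 0) of 8 genes in the 10 KO libraries by labelled time in hours; points are libraries, lines join the group means, dark grey is 0 h and red is 8 h. MYC, JUN and MCL1 lie near the same level at 0 h and 8 h and peak at 6 h, where MYC averages 80.0 CPM.

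On the deposited molecule scale most messages fell. The molecules of all genes summed to 4.03e+10 and 4.18e+10 at 8 h and to 1.62e+11 and 1.48e+11 at 0 h. The 8 h libraries averaged 4.11e+10 ± 1.07e+09 molecules, against 1.55e+11 ± 9.81e+09 at 0 h (SD, n = 2 each), or 26.6% of the 0 h total. The sources do not say per what amount of cells or RNA these molecules are. Of 16837 genes with finite values, 13842 were lower (82.2% of those tested) and 5 were higher (0.0297%; limma, adjusted p under 0.05), and the median log2 change was -1.78, which is 29.1% of the 0 h value. The 5th and 95th percentiles were -2.63 and -0.63. The 5 higher genes were ACTA2, RASA4DP, PKD1L1, LOC100288712 and LOC644456, each with 0 to 22 counts in every one of the 4 libraries. The 0 h total was itself the highest of the KO series: the libraries labelled 2, 4 and 6 h held from 52.3% to 66.2% of its mean. The libraries labelled NC held 3.46e+10 ± 1.16e+09 molecules at 8 h and 8.41e+10 ± 2.13e+09 at 0 h (SD, n = 2 each), or 41.2%.

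Each library's log2 molecules follow its log2 RPKM along 1 straight line, so this loss was set by 2 numbers per library. The slopes were 1.035 and 1.027 at 8 h and 1.112 and 1.081 at 0 h, and the intercepts were 17.6 and 17.7 at 8 h and 19.2 and 19.3 at 0 h. The lines alone move a gene that has 1 RPKM in both groups by -1.59, and a gene that has 1000 RPKM in both by -2.24. Abundant messages therefore lose more on this scale than scarce ones at the same change in RPKM, and how the lines were obtained is not stated by the labels or files. The level of ACTB, the cytoskeletal actin, shows both scales: 6607 and 6798 CPM at 8 h and 6819 and 7018 CPM at 0 h, but 4.42e+08 and 4.56e+08 molecules at 8 h and 2.45e+09 and 2.09e+09 at 0 h. Its log2 change was -0.05 relative to the total (SE 0.03, adjusted p = 0.404, edgeR; -0.19 and lower when scaled to the ribosomal protein genes), and in molecules -2.33 (SE 0.32, adjusted p = 1.82e-06, limma). GAPDH, a glycolytic enzyme, had 3545 and 3629 CPM at 8 h and 3192 and 3285 CPM at 0 h, and 2.43e+08 and 2.51e+08 molecules at 8 h and 1.11e+09 and 9.66e+08 at 0 h. It was higher at 8 h in CPM and lower in molecules, with log2 changes of 0.15 (adjusted p = 2.47e-05, edgeR; 0.01 and not past the threshold under scaling to the ribosomal protein genes) and -2.06 (adjusted p = 1.27e-06, limma).

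**Figure D2:**
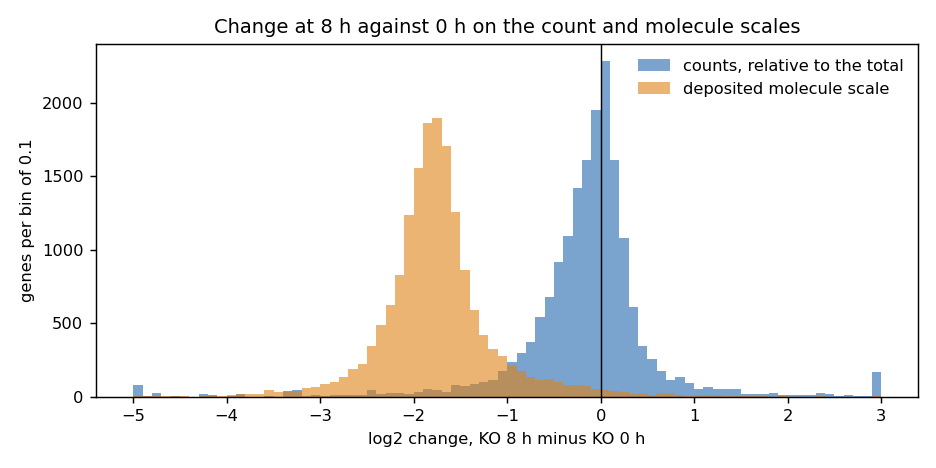
Number of genes (vertical axis) by log2 change of KO 8 h minus KO 0 h (horizontal axis, bins of 0.1; values past either end are gathered in the end bins) relative to the total counts (blue) and on the deposited molecule scale (orange). The count scale is centred near its median of -0.08 and the molecule scale near -1.78.

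Relative to the total, loss was more common than gain and reached further. Of 17715 genes tested on counts, 2652 were lower at 8 h (15%) and 1113 were higher (6.28%), 21.3% in all. Past a log2 change of 1 in size were 273 genes lower (1.54%) and 39 higher (0.22%), and the median over all genes was -0.08. The split depended on the scaling: TMM gave 2004 higher and 1903 lower, DESeq2 gave 2167 higher and 1959 lower, and scaling to the ribosomal protein genes gave 285 higher and 4567 lower. The last moved the median of all genes by -0.14 from that under total scaling. Without KO 0 h replicate 1 the higher count fell to 723. The groups did not overlap in 53.5% of the genes tested. For the largest rises and falls below, the choice required groups that did not overlap. For list members named for the size of their change, the choice favoured it.

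Among genes that passed the test with a mean of at least 10 CPM and no overlap between the groups, the 10 largest falls relative to the total included CDK7, LEO1, PCIF1, PLK1, TNFRSF1A and NOP16. CDK7, the kinase of the general transcription factor TFIIH that also activates cell cycle kinases, stood at 6.0 and 4.39 CPM at 8 h and at 20.4 and 21 CPM at 0 h. Both 8 h libraries lay far below both 0 h libraries, a log2 change of -2.00 (SE 0.15, adjusted p = 2.22e-13, edgeR). LEO1, a subunit of the PAF1 complex that travels with elongating RNA polymerase II, stood at 5.95 and 5.98 CPM at 8 h and at 20.1 and 19.1 CPM at 0 h (log2 change -1.71, SE 0.15, adjusted p = 4.45e-12, edgeR). PCIF1 (hg19 chromosome 20, 44563322 to 44576659, plus strand), the methyltransferase that makes m6Am next to the cap, stood at 5.80 and 4.89 CPM at 8 h and at 16.3 and 15 CPM at 0 h. Its groups were also well apart (log2 change -1.55, SE 0.15, adjusted p = 1.74e-10, edgeR).

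PLK1 (hg19 chromosome 16, 23690210 to 23701688, plus strand), the kinase that drives entry into and progress through mitosis, stood at 18.5 and 18 CPM at 8 h and at 54.6 and 50.8 CPM at 0 h. That is a log2 change of -1.53 (SE 0.08, adjusted p = 4.19e-19, edgeR), with a spread within each group that was small beside the difference. In molecules, PLK1 had 8.40e+05 and 8.62e+05 at 8 h and 9.40e+06 and 8.38e+06 at 0 h, so 9.59% remained. TNFRSF1A, a receptor for tumour necrosis factor, stood at 11.4 and 12.9 CPM at 8 h and at 42.9 and 38.7 CPM at 0 h (log2 change -1.75, SE 0.11, adjusted p = 2.17e-16, edgeR). NOP16, a nucleolar factor of large ribosomal subunit assembly, stood at 6.93 and 5.30 CPM at 8 h and at 23.9 and 21.1 CPM at 0 h (log2 change -1.89, SE 0.14, adjusted p = 4.98e-14, edgeR). The rest of the 10 largest falls were TFIP11, a factor of spliceosome disassembly (-1.53), HSPA1B, an inducible HSP70 (-1.53), ATG101, a subunit of the kinase complex that starts autophagy (-1.49), and MTCO3P12 (-2.31). HSPA1B is a near-identical copy of HSPA1A and MTCO3P12 is a nuclear copy of a mitochondrial gene, so the counting could have split their reads, and MTCO3P12 had an adjusted p of 0.057 in a fit of only the 10 KO libraries (edgeR).

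Under the same limits, the 10 largest rises were at most 0.94 on the log2 scale; the 39 genes past 1 noted above did not meet them. ROMO1 (hg19 chromosome 20, 34287327 to 34288902, plus strand), a small mitochondrial membrane protein, stood at 35.3 and 37.1 CPM at 8 h and at 17.5 and 20.3 CPM at 0 h (log2 change 0.94, SE 0.13, adjusted p = 3.94e-07, edgeR). RPS21 (hg19 chromosome 20, 60962159 to 60963576, plus strand), a protein of the small ribosomal subunit, stood at 148 and 147 CPM at 8 h and at 77.9 and 92 CPM at 0 h (log2 change 0.80, SE 0.07, adjusted p = 2.59e-12, edgeR). ZFAS1, a noncoding host of small nucleolar RNAs, stood at 68.9 and 59.8 CPM at 8 h and at 33.8 and 37.2 CPM at 0 h (log2 change 0.86, SE 0.09, adjusted p = 3.36e-10, edgeR). In all 3 the 8 h libraries lay above the 0 h libraries, as the choice required. Each still fell in molecules, to 53.4% of 0 h for ROMO1, 43.8% for RPS21 and 51.6% for ZFAS1, above the 29.1% of the median gene. The other rises were CAPN12, a calpain protease (0.87), PXMP2, a peroxisomal membrane channel (0.79), DANCR, a long noncoding RNA (0.76), BOLA3, an iron-sulfur cluster factor (0.75), TMEM158 (0.69), FAM156B (0.75) and RPS17P16 (0.75). FAM156B has a near-identical paralog and RPS17P16 is a processed pseudogene, so the counting could have split their reads, and without KO 0 h replicate 1 FAM156B had an adjusted p of 0.053 (edgeR).

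**Figure D3:**
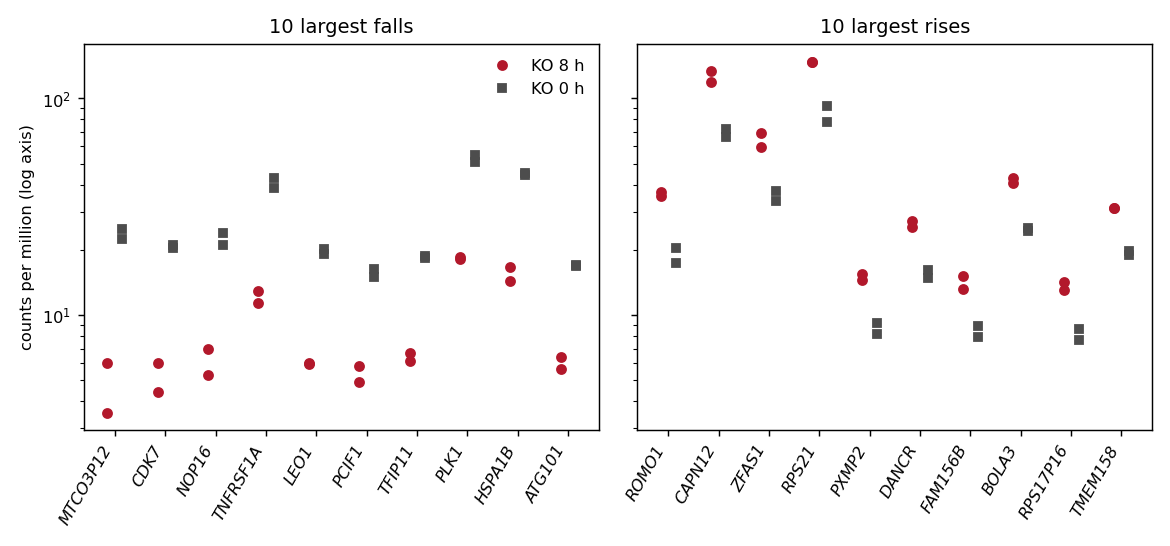
CPM (log axis) of the 10 genes with the largest falls (left) and the 10 with the largest rises (right) among those called with a mean of at least 10 CPM and no overlap, one point per library, red circles for KO 8 h and grey squares for KO 0 h. The groups are apart in all 20 genes because the choice required it; PLK1 is near 18 CPM at 8 h and above 50 CPM at 0 h.

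Messages for the translation apparatus begin, as textbook background, with a C followed by a run of pyrimidines (the 5′ terminal oligopyrimidine start), which ties their translation to mTOR signalling. The first 15 bases from the annotated start, after the 15 before it, are shown for the rises RPS21, ZFAS1 and ROMO1, for EIF4B and EEF1A1, which encode translation factors, and for the falls CDK7 and PLK1. They are from RefSeq (GRCh38.p14), read 5′ to 3′ on the gene's strand, and capitals mark a start whose first base is C and whose next 4 bases are all C or T.
RPS21: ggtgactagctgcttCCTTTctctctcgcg
ZFAS1: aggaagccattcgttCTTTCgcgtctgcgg
EEF1A1: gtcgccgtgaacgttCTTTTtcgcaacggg
EIF4B: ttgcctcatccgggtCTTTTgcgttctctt
ROMO1: agcgccctccccgtcgttttccgtgagaga
CDK7: agcccggtggacggaagtgggtgttggagg
PLK1: ggagcggagcggtgcggaggctctgctcgg
The windows lie at chr20:62387088-62387117 (RPS21, plus strand), chr20:49278627-49278656 (ZFAS1, plus), chr6:73521018-73521047 (EEF1A1, minus), chr12:53006441-53006470 (EIF4B, plus), chr20:35699390-35699419 (ROMO1, plus), chr5:69234871-69234900 (CDK7, plus) and chr16:23678874-23678903 (PLK1, plus). Such a start stood at the first annotated base of 4.04% of 27305 promoters, and of 4.01% when the same bases were read on the other strand. Among ribosomal protein genes with a promoter in the table, 42 of 62 held it. Of the largest rises, 8 had a promoter there and 2 held the start, namely RPS21 and ZFAS1, both shown above. Of the largest falls, 9 had a promoter there and 0 held the start. Of the 650 tested genes with the start, 12.8% were higher at 8 h and 16.2% lower, with a median log2 change of -0.04. Of the 11843 without it, 6.61% were higher and 17.6% lower, with a median of -0.09. The 650 include the 42 ribosomal protein genes, and 39 of the 62 with a promoter were higher. The part of these genes in the contrast was not tested. The start did not sort all changes: EIF4B, with the start, stood at 195 and 187 CPM at 8 h and at 377 and 363 CPM at 0 h, a log2 change of -0.95 (SE 0.04, adjusted p = 6.48e-22, edgeR). EEF1A1 was close to level at 10613 and 10418 CPM at 8 h and 11216 and 11153 CPM at 0 h (log2 change -0.09, SE 0.02, adjusted p = 0.00291, edgeR). EEF1A1 was chosen for display after its values were seen, and a match of letters is a description, not a measured site.

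Of 30 tested G2/M and mitotic genes, 24 fell and 1 rose, with a median log2 change of -0.42 relative to the total. Over all genes tested 15% fell and 6.28% rose, with a median of -0.08. Of the 4429 genes with the highest mean CPM, 23.7% fell and 19.9% rose. In molecules the median of the G2/M list was -2.34, against -1.78 over all genes. CENPF, a kinetochore protein, stood at 129 and 128 CPM at 8 h and at 314 CPM in both 0 h libraries (log2 change -1.29, SE 0.04, adjusted p = 3.09e-24, edgeR). TTK, the checkpoint kinase, stood at 25.8 and 22.7 CPM at 8 h and at 47.0 and 47.6 CPM at 0 h (log2 change -0.96, adjusted p = 3.16e-10, edgeR). CDC25C, the phosphatase that activates CDK1, stood at 9.34 and 8.41 CPM at 8 h and at 16.1 and 19.3 CPM at 0 h (log2 change -1.0, adjusted p = 5.79e-06, edgeR). CENPF, TTK and CDC25C were lower in both 8 h libraries than in both 0 h libraries. BIRC5, the exception, stood at 211 and 208 CPM at 8 h and at 184 CPM in both 0 h libraries. The count of falls was 22 with TMM and 27 with scaling to the ribosomal protein genes. G1/S and DNA replication genes were less uniform, with 10 of 28 lower, 3 higher and a median of -0.09, and the balance turned with the scaling: TMM gave 6 lower and 10 higher, and the ribosomal protein genes gave 14 lower and 1 higher.

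Of 78 cytosolic ribosomal protein genes, 48 were higher relative to the total, 2 were lower, and the median log2 change was 0.19. Across all genes tested 6.28% were higher and 15% lower, and among the 4429 with the highest mean CPM 19.9% and 23.7%. RPS28 stood at 157 and 162 CPM at 8 h and at 102 and 113 CPM at 0 h (log2 change 0.57, SE 0.07, adjusted p = 1.05e-07, edgeR). RPS29 stood at 39.3 and 35.9 CPM at 8 h and at 21.7 and 28.4 CPM at 0 h (log2 change 0.59, adjusted p = 0.00141, edgeR; adjusted p = 0.101 without KO 0 h replicate 1). In both RPS28 and RPS29 the groups were apart. These genes held 4.56% and 4.63% of the counts at 8 h and 4.13% and 4.2% at 0 h. In molecules 77 of the 78 were lower, against 82.2% of all genes, and their median was -1.87, against -1.78. The lines alone move a gene that has 100 RPKM in both groups by -2.02, so this median cannot be read apart from abundance. On counts, scaling to this list itself left 22 higher and 15 lower. Many of these genes have processed pseudogenes, so their counts are uncertain where reads could be split.

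Genes of oxidative phosphorylation encoded in the nucleus showed 10 of 28 higher, 1 lower and a median of 0.14; scaling to the ribosomal protein genes left 4 higher and 3 lower. COX5B, a subunit of cytochrome c oxidase, stood at 101 and 96.9 CPM at 8 h and at 71.4 and 74.6 CPM at 0 h (log2 change 0.44, SE 0.07, adjusted p = 3.71e-06, edgeR). NDUFB8, a subunit of complex I, stood at 107 and 111 CPM at 8 h and at 82.2 CPM in both 0 h libraries (log2 change 0.41, adjusted p = 1.32e-05, edgeR). The 2 genes were higher in both 8 h libraries than in either 0 h library. Of 20 core proteasome genes, 6 were higher and 2 lower, and of 18 class I antigen presentation genes 5 were higher and 0 lower. With scaling to the ribosomal protein genes these counts became 1 and 5, and 1 and 3. Over all genes tested 6.28% were higher and 15% lower, and among the 4429 with the highest mean CPM 19.9% and 23.7%. The 37 mitochondrially encoded genes had 0 counts in the deposited tables.

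**Figure D4:**
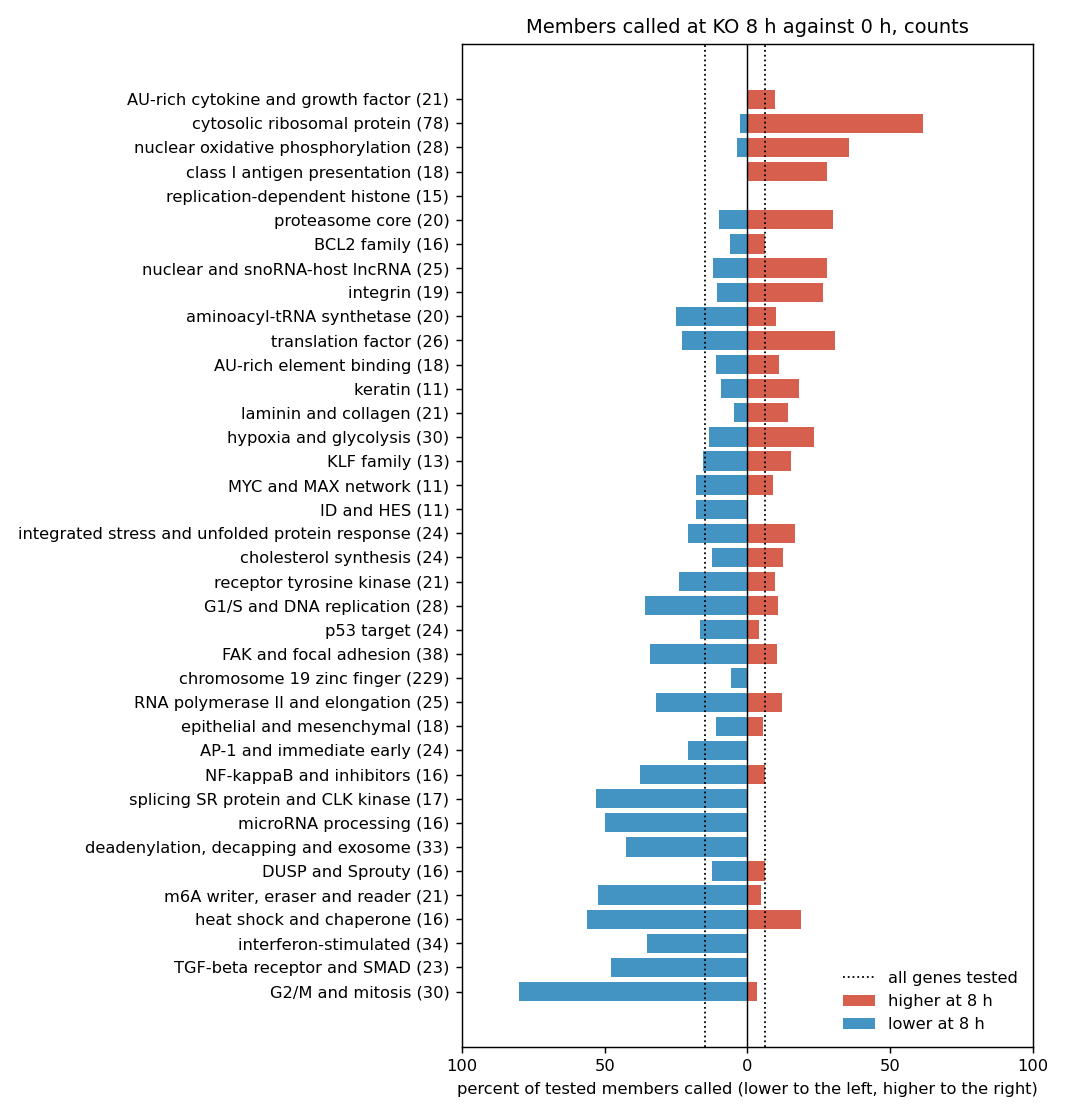
Percent of the tested members of each gene list (number tested in parentheses) called lower (left, blue) or higher (right, red) at KO 8 h against 0 h on counts; dotted lines mark all genes tested, 15% lower and 6.28% higher. Of the G2/M list 24 of 30 were lower, and of the ribosomal protein list 48 of 78 were higher.

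Of 33 genes of deadenylation, decapping and the exosome, 14 fell and 0 rose, with a median of -0.23. All genes tested had 15% lower and 6.28% higher, with a median of -0.08. The 4429 genes with the highest mean CPM had 23.7% lower and 19.9% higher. CNOT8, a catalytic subunit of the CCR4-NOT deadenylase, stood at 6.54 and 9.55 CPM at 8 h and at 17.2 and 22.4 CPM at 0 h (log2 change -1.29, SE 0.14, adjusted p = 3.20e-09, edgeR). DDX6, a helicase of decapping, stood at 99.3 and 88.6 CPM at 8 h and at 145 and 148 CPM at 0 h (log2 change -0.64, adjusted p = 1.21e-10, edgeR). Neither overlapped between the groups. Of 21 m6A writers, erasers and readers, 11 fell and 1 rose, with a median of -0.27. VIRMA, the scaffold of the writer complex, stood at 50.1 and 42.9 CPM at 8 h and at 76.5 and 77.5 CPM at 0 h (log2 change -0.73, adjusted p = 1.02e-08, edgeR). FTO, an eraser, stood at 18.8 and 22.9 CPM at 8 h and at 33.5 and 35.0 CPM at 0 h (log2 change -0.71, adjusted p = 6.37e-06, edgeR). ZC3H13 (-0.76) and RBM15B (-0.88), further writer subunits, fell as well. METTL3, the catalytic writer subunit, stood at 49.1 and 42.6 CPM at 8 h and at 43.0 and 44.2 CPM at 0 h, and the groups overlapped (log2 change 0.07, adjusted p = 0.698, edgeR).

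Of 16 genes of microRNA processing, 8 fell and 0 rose, with a median of -0.22. DICER1, which cuts precursor hairpins, stood at 78.1 and 75 CPM at 8 h and at 104 and 93.3 CPM at 0 h (log2 change -0.37, SE 0.07, adjusted p = 0.000125, edgeR). DGCR8, the partner of DROSHA, fell by 0.61. Of 17 SR splicing factors and their kinases, 9 fell and 0 rose, with a median of -0.22, led by SRPK2, a kinase of SR proteins, at 18.8 and 18.3 CPM at 8 h and at 30.4 and 31.3 CPM at 0 h (log2 change -0.73, adjusted p = 3.33e-07, edgeR). Of 25 genes of RNA polymerase II and elongation, 8 fell and 3 rose, with a median of -0.14. For comparison, 15% of all genes tested fell and 6.28% rose, with a median of -0.08. Among genes with a mean of 10.7 to 45.5 CPM, 25.1% fell and 3.57% rose. Among the 4429 genes above these, 23.7% fell and 19.9% rose. CDK12, which phosphorylates the polymerase tail, stood at 38.5 and 40.5 CPM at 8 h and at 68.5 and 69.0 CPM at 0 h, a log2 change of -0.80 (adjusted p = 5.74e-11, edgeR). With TMM the falls numbered 9 of 33 for the decay list, 8 of 21 for the m6A list, 4 of 16 for microRNA processing, 6 of 17 for the SR list and 7 of 25 for the polymerase list, where 5 were higher. Of KHSRP's paralogs, FUBP1 changed by -0.18 (adjusted p = 0.00294, edgeR; 0.170 with TMM and 0.061 without KO 0 h replicate 1) and FUBP3 by 0.18 (adjusted p = 0.0170, edgeR; no longer past the threshold when any one of the 4 libraries was left out).

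Of 23 TGF-beta receptor and SMAD genes, 11 fell and 0 rose, with a median of -0.34. SKI, a repressor of SMADs, stood at 18.1 and 18.2 CPM at 8 h and at 37.6 and 32.3 CPM at 0 h (log2 change -0.95, SE 0.11, adjusted p = 3.84e-09, edgeR). SMAD4, the common SMAD, stood at 12 and 12.6 CPM at 8 h and at 20.1 and 22.1 CPM at 0 h (log2 change -0.78, adjusted p = 1.41e-05, edgeR). Of 34 interferon-stimulated genes, 12 fell and 0 rose, with a median of -0.34. IFIT1, a sensor of foreign RNA caps, stood at 90.4 and 91.1 CPM at 8 h and at 171 and 173 CPM at 0 h (log2 change -0.92, SE 0.07, adjusted p = 6.89e-14, edgeR). OASL stood at 12.4 and 15.1 CPM at 8 h and at 29.1 and 33.8 CPM at 0 h (log2 change -1.19, adjusted p = 5.20e-07, edgeR). In both lists the genes named here had groups that did not overlap, as in 53.5% of all genes tested. With TMM 9 TGF-beta and SMAD genes were lower and 1 higher, and 11 interferon-stimulated genes were lower and 1 higher. Relative to the total, 15% of all genes tested fell and 6.28% rose, with a median of -0.08. In the 4429 genes with the highest mean CPM, 23.7% fell and 19.9% rose.

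Of 16 heat shock and chaperone genes, 9 fell and 3 rose, with a median of -0.28. HSPA8, the constitutive HSP70, stood at 1306 and 1203 CPM at 8 h and at 2118 and 2137 CPM at 0 h (log2 change -0.76, SE 0.03, adjusted p = 2.79e-22, edgeR). DNAJB1, an HSP40, stood at 21.4 and 25.3 CPM at 8 h and at 59.2 and 53.6 CPM at 0 h (log2 change -1.27, adjusted p = 8.32e-16, edgeR). Of 16 NF-kappaB genes, 6 fell and 1 rose (4 and 1 with TMM), and RELA, its p65 subunit, stood at 45.1 and 49.2 CPM at 8 h and at 73.4 and 69.1 CPM at 0 h (log2 change -0.60, adjusted p = 2.30e-08, edgeR). Of 38 FAK and focal adhesion genes, the pathway in the title of the series, 13 fell and 4 rose, with a median of -0.10. With TMM 9 were lower and 9 higher, and with scaling to the ribosomal protein genes 24 were lower and 1 higher. BCAR1, a scaffold downstream of FAK, stood at 19.2 and 15.1 CPM at 8 h and at 32.3 and 35.0 CPM at 0 h (log2 change -0.98, SE 0.11, adjusted p = 7.39e-09, edgeR). Of 19 integrin genes, 5 were higher and 2 lower, but 0 higher and 3 lower under scaling to the ribosomal protein genes. Among all genes tested the shares relative to the total were 6.28% higher and 15% lower.

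Of 24 AP-1 and immediate early genes, 5 fell and 0 rose, with a median of -0.18 relative to the total and of -1.68 on the molecule scale, where 21 of 22 were lower. Over all genes tested 15% fell on counts, not far from the share of this list, and TMM gave 5 lower and 3 higher. The falls were led by CCN2, a matricellular target of YAP, at 28.9 and 27.6 CPM at 8 h and at 74.6 and 83.0 CPM at 0 h (log2 change -1.48, SE 0.07, adjusted p = 3.95e-19, edgeR). A rise relative to the total was called for 6.28% of all genes tested, not far from the share of the next list. Of 21 cytokines and growth factors with AU-rich messages, 2 rose and 0 fell (1 and 1 with scaling to the ribosomal protein genes). The 2 were EREG, a ligand of the EGF receptor, at 249 and 233 CPM at 8 h and at 191 and 183 CPM at 0 h (log2 change 0.37, adjusted p = 1.47e-05, edgeR), and LIF at 96.8 and 91.7 CPM at 8 h and at 72.1 and 78.3 CPM at 0 h (log2 change 0.33, adjusted p = 0.00386, edgeR). LIF was no longer past the threshold without KO 0 h replicate 1 (adjusted p = 0.087) or KO 8 h replicate 1 (0.054), or under scaling to the ribosomal protein genes (log2 change 0.19, adjusted p = 0.113, edgeR). Of 229 tested zinc finger genes on chromosome 19, 13 fell and 0 rose, with a median of -0.13 (7 fell with TMM). Both shares lay below the 15% that fell and the 6.28% that rose over all genes tested. The list is low in counts, with a sum over its 277 members of 1669 and 1699 CPM at 8 h. Calls were rarer at low levels: among the 4429 genes with a mean of 1.06 to 10.7 CPM, 9.3% fell and 1.2% rose. The list's median lay below the -0.08 of all genes, so few calls do not mean smaller falls.

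Levels at the intermediate labelled times are given beside those at 8 h and 0 h, which share their libraries with the comparison above. PLK1 averaged 52.7 CPM at 0 h, 26.1 at 2 h, 128 at 4 h, 175 at 6 h and 18.3 at 8 h. CDK7 averaged 20.7 CPM at 0 h, 9.05 at 2 h, 38.0 at 4 h, 48.1 at 6 h and 5.19 at 8 h. RPS21 averaged 85.0 CPM at 0 h, 119 at 2 h, 78.6 at 4 h, 77.1 at 6 h and 148 at 8 h. For PLK1 and CDK7 the order from high to low was 6, 4, 0, 2 and 8 h, and for RPS21 the reverse. The libraries of RPS21 overlapped between 0 h and 4 h and between 4 h and 6 h, and no other neighbours in these 3 orders overlapped. Against the libraries labelled 6 h, the 8 h libraries had 6332 of 17715 genes lower (35.7%) and 3010 higher (17%), 52.7% in all, and 23 of the 24 immediate early genes were lower with a median log2 change of -3.57.

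Among the 4429 genes with the longest annotated length, 5480 bases and up, 1131 fell and 155 rose, while among the 4429 shortest, up to 1905 bases, 230 fell and 380 rose. The median log2 changes on counts were -0.16 in the longest and 0 in the shortest. Across the 17715 genes Spearman's rho with length was -0.15, a description only, since genes are not independent replicates and longer genes collect more counts per molecule. On the molecule scale the medians were -1.81 in the longest and -1.74 in the shortest. The part of RNA quality or of transcript length in the group changes was not tested.

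The libraries labelled NC allow a test of where the KO change differed, with the reservation on their cell line label above. In these, 480 genes fell (2.71% of 17715) and 133 rose (0.751%), 3.46% in all, and 344 of the KO falls were among the NC falls, 13.0% of the KO list and 71.7% of the NC list. The difference of the changes, KO minus NC, was below 0 for 835 genes (4.71%) and above 0 for 301 (1.7%), 6.41% in all (edgeR, adjusted p under 0.05), a comparison that shares no library between its arms. TMM gave 662 and 508, DESeq2 gave 848 and 560, and scaling to the ribosomal protein genes gave 1055 and 147. On the molecule scale 6852 of 15866 genes fell more in KO (43.2%) and 38 less (0.24%), 43.4% in all, with a median difference of -0.62. The log2 change of the molecule total was -1.91 in KO and -1.28 in NC. Each library's line moves all its genes together, so these molecule calls are not separate evidence for each gene.

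Of the 30 G2/M genes, 22 had a lower change in KO than in NC and 0 a higher one. Their median difference was -0.46, against -0.03 over all genes tested, of which 4.71% were lower and 1.7% higher. In the libraries labelled NC the list's median change was -0.01 with 2 higher and 2 lower. PLK1 stood at 97.1 and 110 CPM at 8 h and at 114 and 113 CPM at 0 h in the libraries labelled NC, so that the difference was -1.39 (adjusted p = 1.70e-13, edgeR). The difference was -1.12 for CENPF (adjusted p = 9.90e-17, edgeR), -1.62 for CDK7 (adjusted p = 1.02e-06, edgeR) and -1.56 for PCIF1 (adjusted p = 8.71e-07, edgeR). PLK1, CENPF, CDK7 and PCIF1 were named for their KO change, which is also 1 arm of this difference. MALAT1, a nuclear long noncoding RNA, stood at 206 and 191 CPM in KO at 8 h and 198 and 199 CPM at 0 h, and in the libraries labelled NC at 373 and 327 CPM at 8 h and 218 and 203 CPM at 0 h (difference -0.74, adjusted p = 3.52e-09, edgeR). Its groups overlapped in KO and not in NC.

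**Figure D5:**
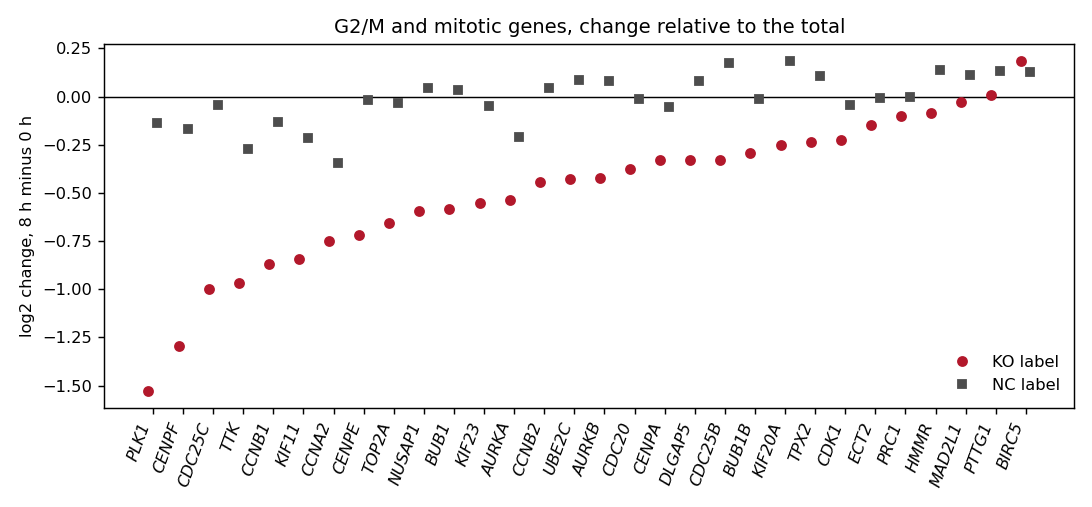
Log2 change of 8 h minus 0 h relative to the total (vertical axis) for the 30 G2/M and mitotic genes, in KO libraries (red circles) and in the libraries labelled NC (grey squares), ordered by the KO change. PLK1 is at -1.53 in KO and -0.14 in NC, and the NC points lie around 0.

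By size alone, the largest differences were in genes nearly silent under one label. RN7SK had 36 and 16 counts in KO at 8 h, 0 and 0 at 0 h, 797 and 644 in NC at 8 h and 219 and 264 at 0 h. ANO2 had 6 and 4 counts in KO at 8 h and 0 and 0 at 0 h, against 419 to 610 in the 4 NC libraries. TENT5A had 0 and 0 counts in KO at 8 h and 6 and 6 at 0 h, against 421 to 475 in NC. ANTXR2, KIF1A, MLPH and GJA1 had from 2187 to 7289 counts in each KO library and at most 16 in each NC library. With a group at or near 0 counts no fold is given for these genes, whose labels differ at both times. TRABD2A (difference 1.67, adjusted p = 0.0004, edgeR) and FERMT1 (1.07, adjusted p = 0.0376) complete the genes named by size. FERMT1 was not past the threshold under scaling to the ribosomal protein genes (adjusted p = 0.053) or when any of 5 single libraries was left out, and without KO 0 h replicate 1 its difference was 0.61 (adjusted p = 0.415, edgeR). Among genes of at least 5 CPM under both labels, the largest differences upward were E2F2 (1.07), FAM156B (1.0), MTLN (0.86), ROMO1 (0.84) and LRIG2 (0.83), all but ROMO1 no longer past the threshold when certain single libraries were left out.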

How the data were processed

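PANC-1 polyA RNA-seq after actinomycin D was deposited as 1 table per library, which holds for each gene the count of reads, RPM, RPKM, log2 RPKM, log2 molecules and molecules as made by the authors. Per the file headers the count column holds reads per gene with an annotated length. The deposited RPM sums to 43.1% to 46.5% of 1e+06 per library, the deposited RPKM divides it by length, and the deposited log2 molecule value is a straight line of log2 RPKM in each library. The deposited molecule signal is 2 to that power, and no label or header states how the line was set. The submitters' processing notes name STAR, RSEM, Bowtie2, deepTools and hg19, with no roles or versions. The strand setting of the counting is not given either.

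Counts were tested with edgeR 4.0.16 (quasi-likelihood, robust) under R 4.3.3, with library sizes set to the total count, a filter of 10 counts (filterByExpr) and 1 mean for each of the 10 groups of 2 libraries. CPM is the count per 1e+06 of that total. Deposited log2 molecules of the genes that passed the filter were tested with limma 3.58.1 (trend, robust), leaving out genes without finite values. Calls are at a Benjamini-Hochberg adjusted p under 0.05 over all genes tested, and the tests were checked on simulated data. SE is the absolute log2 change over the square root of F for counts. The difference of the KO and NC changes came from the same fits. Alternatives were TMM, DESeq2 1.42.0, scaling to ribosomal protein genes, filters, pseudocounts, sample subsets and a replicate block. Same-numbered libraries had correlations of deviations from -0.017 to 0.026, so the numbers were not taken to pair them.

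The comparison and the gene lists were chosen with earlier results of these data known. Genes were named by a rule: KHSRP, MYC, JUN, MCL1, GAPDH, ACTB and MALAT1; the 10 largest rises and falls that passed the test with a mean of at least 10 CPM and no overlap; up to 4 members of each of the 45 lists with the largest change at 5 CPM or more; and the 5 largest KO minus NC differences each way. FOS, METTL3, EEF1A1, BIRC5, the 5 genes higher in molecules and the genes of at least 5 CPM under both labels were chosen after their values were seen. Some items that the rule names are not reported here. Promoter starts are from RefSeq, GRCh38.p14, and were not combined with hg19 coordinates. Scripts used Python 3.11.15.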

Additional observations from a re-analysis of the deposited data

Results flagged for a closer look

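The change of the libraries labelled KO was set against that of the libraries labelled NC by a test of the difference itself (edgeR on counts, limma on molecules, adjusted p under 0.05). On counts 835 genes were lower in KO minus NC and 301 higher, and on the molecule scale 6852 were lower and 38 higher. The molecule calls are not separate evidence for each gene, since each library's line moves all its genes together. The values below are KO minus NC differences of the log2 change on counts, and what sets them was not tested. Genes named for the size of their KO change share that change with the difference. A difference in the same direction was therefore favoured by the choice of these genes.

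Among the largest falls the difference was -1.62 for CDK7, -1.56 for PCIF1, -1.51 for LEO1, -1.42 for NOP16, -1.39 for PLK1, -1.24 for TNFRSF1A, -1.07 for TFIP11, -0.98 for HSPA1B and -0.67 for ATG101. Further mitotic genes gave -1.12 (CENPF), -0.95 (CDC25C) and -0.69 (TTK). Among the largest rises it was 1.0 for FAM156B, 0.84 for ROMO1, 0.83 for PXMP2, 0.73 for DANCR, 0.64 for RPS21 and 0.58 for ZFAS1, with 0.49 for RPS28 and 0.41 for COX5B.

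Chaperones gave -1.12 (DNAJB1), -0.71 (HSPA1A) and -0.33 (HSPA8). Signalling and stress genes gave -1.27 (CCN2), -0.98 (IFIT1), -0.92 (SKI) and -0.54 (RELA). Genes of RNA metabolism gave -0.96 (CNOT8), -0.60 (FTO), -0.57 (ZC3H13), -0.55 (SRPK2), -0.54 (RBM15B), -0.44 (CDK12) and -0.41 (VIRMA). The translation factors EIF4B and EEF1A1 gave -0.75 and -0.12.

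MALAT1 gave -0.74, JUN 0.78, MCL1 0.26 and GAPDH 0.14. TRABD2A and FERMT1, which are low in KO, gave 1.67 and 1.07, and E2F2, MTLN and LRIG2 gave 1.07, 0.86 and 0.83. Without KO 0 h replicate 1 FERMT1 gave 0.61 and was not past the threshold (adjusted p = 0.415, edgeR).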

How the results depend on the processing

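The number of genes higher at KO 8 h depended on the scaling: 1113 by total counts, 2004 by TMM, 2167 by DESeq2 and 285 by ribosomal protein genes, which gave 4567 lower. The KO minus NC difference was higher for 508 genes by TMM, 560 by DESeq2 and 147 by ribosomal protein genes. On the molecule scale the genes higher numbered 20 and 55 with pseudocounts of 0.01 of the median and of 0.5 of the smallest value, 1 among genes of at least 1 CPM and, in an alternative chosen after seeing the data, 3 without the KO 6 h and NC 4 h libraries. The molecule difference was higher for 97 and 59 genes with these pseudocounts, 21 at 1 CPM or more and 0 among genes of at least 5 CPM in both labels, also chosen after seeing the data (limma; 7067 were lower there). Leaving out 1 library gave 723 to 852 higher and 1988 to 2143 lower on counts, 2 to 16 and 12848 to 13174 on molecules, 173 to 244 and 584 to 699 for the count difference, and 21 to 54 and 5241 to 6452 for the molecule difference. A group left with 1 library is then assumed to vary like the others. The cause of these moves was not tested.

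The replicate numbers do not pair the libraries. With the replicate block, 1099 genes were higher and 2624 lower on counts, 7 and 13791 on molecules, 293 and 809 for the count difference and 38 and 6868 for the molecule difference. MTLN lost its KO minus NC call under the block. By depth, 22 rose and 77 fell among the 4429 genes with the lowest mean CPM, against 880 and 1050 among the 4429 with the highest.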
